A study of Mus musculus with 6 samples.

Results

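The enzymes compared here come as tissue isozymes, products of separate genes that catalyse 1 reaction in glycogen breakdown or glycolysis. The muscle forms are Pfkm (phosphofructokinase), Pygm (glycogen phosphorylase), Phka1 (the alpha regulatory subunit of phosphorylase kinase) and Eno3 (enolase). Their partners in liver, brain, platelets or most tissues are Pfkl, Pfkp, Pygl, Pygb, Phka2 and Eno1. Members were taken as the probe sets of the Affymetrix mouse genome array used whose annotation names 1 of these 10 genes and no other. The annotation gave 17 probe sets of 45101, 6 for the 4 muscle isozymes and 11 for 5 of the 6 partners. Eno1 had 0 probe sets under this rule and was not analysed here.

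Signals came from inguinal white adipose tissue, the subcutaneous fat of the groin, of male mice, 3 wild-type (WT) and 3 Naa10-KO, each on an array of its own. The enzyme Naa10 acetylates the N-termini of proteins, and the series title concerns its effect on heat production by beige adipocytes. Both genotypes began a diet rich in fat, which made up 60% of its calories, when 6 weeks old, ate it for 15 weeks and were held at 4 °C for 4 h at the end. The labels do not say how the Naa10-KO allele was made or in which cells it acts.

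Glycogen phosphorylase releases glucose phosphate from glycogen, and phosphorylase kinase switches it on when calcium or cyclic AMP rises. Phosphofructokinase then commits the sugar to glycolysis, and enolase acts near the end of that pathway. Skeletal muscle uses its own forms of these enzymes to fuel contraction, while adipocytes hold a small glycogen store.

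Muscle and partner isozymes stood apart in the comparison of genotypes. All 4 muscle isozymes had higher signal on every Naa10-KO array than on any WT array, with log2 differences of 1.61 to 4.29. Of these, Phka1 rose in limma, a linear model with shared variance estimates, at an adjusted p of 0.05 over all genes, and the other 3 did not pass. Over 18193 genes, limma called 16 higher (0.0879%) and 5 lower (0.0275%), 0.115% in either direction, and in 10% of genes every Naa10-KO array was above every WT array. The 5 measured partners had lower means in Naa10-KO, with log2 differences of -0.50 to -0.23, and 0 passed. Among the partners 1, Pfkl, had an unadjusted p under 0.05 in limma, as did all 4 muscle isozymes and 9.20% of all genes. The median difference was 2.82 for the muscle isozymes and -0.27 for the partners, beside 0.01 for all genes.

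The count of muscle isozymes called depended on how the variance and the low genes were handled. All 4 passed when genes with low signal were left out, when low values were raised to a floor, and in limma with its trend and robust options. Raising values to a floor also removes the spread among low values. In these fits calls were also more frequent over all genes tested, at 0.738% of 11795, 0.882% of 13264 and 0.753% of 18193. None passed with the mean of a gene's probe sets, with the replicate number as a block, or without any single array other than WT replicate 3, fits in which 0 of all 18193 genes passed in limma. All 4 had an unadjusted p under 0.05 in each of these, as did 6.71% to 9.43% of all genes. Without WT replicate 3, Pygm (adjusted p = 0.0462) and Eno3 (0.0388) passed in limma, and Phka1 did not (0.0581), with 0.165% of all genes called.

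**Figure D1:**
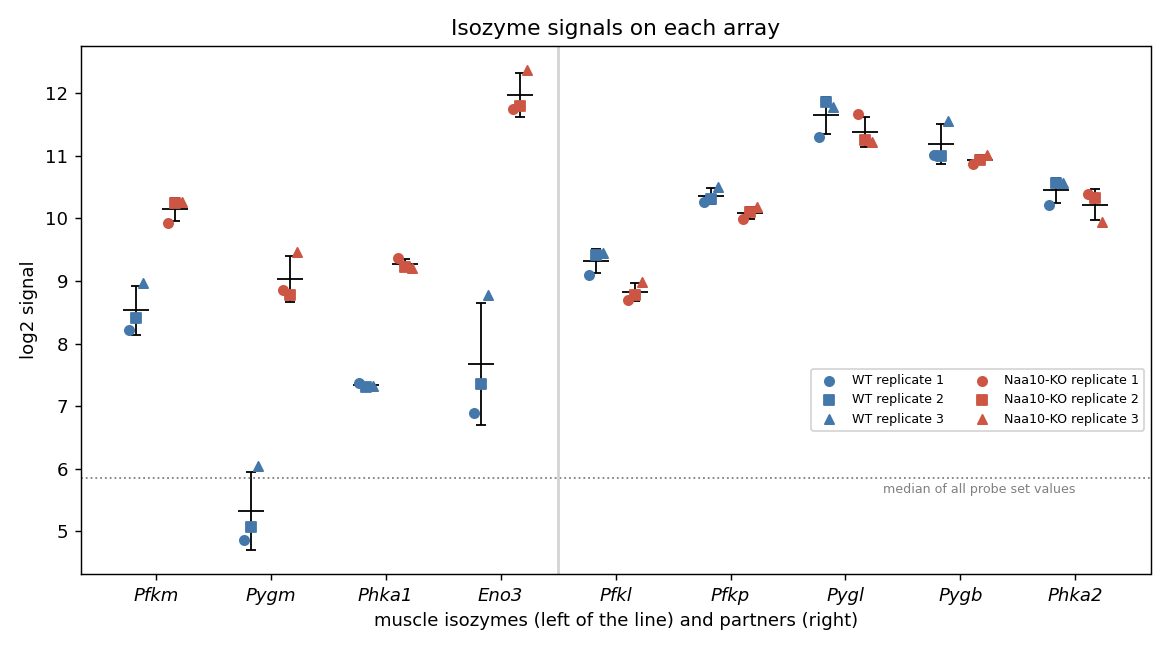
Log2 signal of the 9 measured isozymes on each array, with 1 symbol per replicate, horizontal bars at the mean and error bars of 1 SD (n = 3). The 4 muscle isozymes on the left separate by genotype, Eno3 by a log2 difference of 4.29, while the 5 partners on the right differ by at most 0.50. Heights of different genes come from different probe sets and are not to be set against each other.

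Glycogen phosphorylase showed the contrast between isozymes most fully. Pygm, the form of skeletal muscle, was at log2 signals of 4.87, 5.07 and 6.04 on the WT arrays and 8.86, 8.77 and 9.45 on the Naa10-KO arrays, in replicate order here and below. The lowest Naa10-KO array lay 2.73 above the highest WT array. Its mean went from 5.33 ± 0.63 (SD, n = 3) in WT to 9.03 ± 0.37 (SD, n = 3) in the knockout. That log2 difference, 3.70 (SE 0.38, 13.0-fold), came with an adjusted p of 0.0691 in limma. WT replicates 1 and 2 were under 5.86, the median of all probe set values, which serves as a mark for low signal. With values under that mark set equal to it, the difference was 3.11, or 8.65-fold, with an adjusted p of 0.00181 in limma. This step gives WT replicates 1 and 2 the same value. It thus narrows the WT spread, and the smaller p goes with a smaller difference. Of all genes, 0.275% had a larger difference than Pygm.

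The liver form, Pygl, was high on every array, at 11.30, 11.85 and 11.77 in WT and 11.66, 11.25 and 11.22 in Naa10-KO. Its genotypes overlapped, with a log2 difference of -0.27 (95% interval -0.84 to 0.30, limma adjusted p = 0.728). The brain form, Pygb, was at 11.01, 10.99 and 11.55 in WT and 10.87, 10.93 and 11.01 in Naa10-KO. Its difference of -0.25 (95% interval -0.76 to 0.26, limma adjusted p = 0.718) did not pass, and WT replicate 3 was the highest array. Both intervals lie far below that of Pygm, which ran from 2.74 to 4.66.

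Phosphorylase kinase holds 4 kinds of subunit, and its alpha subunit exists in a muscle form, Phka1, and a liver form, Phka2. Phka1 was at 7.37, 7.30 and 7.33 on the WT arrays and at 9.37, 9.22 and 9.21 on the Naa10-KO arrays. Within each genotype the 3 arrays lay close together, with SDs of 0.04 and 0.09. The log2 difference of 1.93 (SE 0.13, 3.82-fold) passed in limma with an adjusted p of 0.0408. Over 15 alternatives its adjusted p ran from 2.01e-04 to 0.312, and the difference from 1.17 to 1.96. The lowest value came from averaging its 3 probe sets, where it did not pass (0.163).

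Phka1 had 2 further probe sets with smaller differences. The brighter of these was at 7.47, 7.33 and 7.67 in WT and 8.42, 8.06 and 8.32 in Naa10-KO, a difference of 0.78 without overlap of the genotypes. The dimmer was at 6.22, 6.48 and 5.26 in WT and 6.39, 7.05 and 6.91 in Naa10-KO, a difference of 0.80 with overlap. The direction was thus shared by the 3 probe sets, while the size of 1.93 belonged to the brightest. In limma over all 45037 probe sets other than controls, their adjusted p-values were 0.0905, 0.530 and 0.708.

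Phka2 was at 10.21, 10.56 and 10.57 in WT and 10.39, 10.32 and 9.93 in Naa10-KO. The genotypes overlapped, with a difference of -0.23 (95% interval -0.73 to 0.27, limma adjusted p = 0.735). Its 2 other probe sets lay under the low-signal mark on every array and differed by 0.65 and 0.15. Averaging the 3 therefore turned the sign of the Phka2 difference, to 0.19.

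Phosphofructokinase subunits assemble into tetramers of muscle, liver and platelet type. Pfkm, the muscle type, was at 8.22, 8.40 and 8.96 in WT and 9.93, 10.24 and 10.25 in Naa10-KO. All arrays were over the low-signal mark, and the lowest Naa10-KO array lay 0.97 above the highest WT array. The log2 difference of 1.61 (SE 0.25, 3.06-fold) was the smallest of the 4 muscle isozymes and did not pass in limma (adjusted p = 0.167).

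Pfkl, the liver type, was at 9.10, 9.42 and 9.45 in WT and 8.70, 8.78 and 8.99 in Naa10-KO. Every Naa10-KO array was below every WT array, as in 8.14% of all genes. The difference was -0.50 (95% interval -0.93 to -0.07), with an unadjusted p of 0.0311 and an adjusted p of 0.512 in limma. A further Pfkl probe set, also without overlap, differed by -0.63, and the dimmest, near the low-signal mark, by -0.40 with overlap.

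Pfkp, the platelet type, was at 10.26, 10.31 and 10.50 in WT and 9.99, 10.11 and 10.18 in Naa10-KO. The groups again did not overlap, but the difference of -0.27 (95% interval -0.63 to 0.10) did not pass in limma (adjusted p = 0.613). Its 2 dimmer probe sets differed by -0.91 and 0.61, with overlap in both. On the first of these, the Naa10-KO arrays spread from 3.02 to 6.49.

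Enolase was represented by its muscle form. Eno3 was at 6.89, 7.36 and 8.77 on the WT arrays and at 11.74, 11.80 and 12.37 on the Naa10-KO arrays. The lowest Naa10-KO array lay 2.97 above WT replicate 3, itself the highest of the WT arrays. This was the largest difference among the measured isozymes, 4.29 on the log2 scale (SE 0.53, 19.6-fold), and 0.203% of all genes had a larger one. It did not pass in limma (adjusted p = 0.107). Eno2, the enolase of neurons, was under the low-signal mark on all 6 arrays, at 2.02 to 4.86 in WT and 4.72 to 4.78 in Naa10-KO, and gave no usable partner for Eno3.

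**Figure D2:**
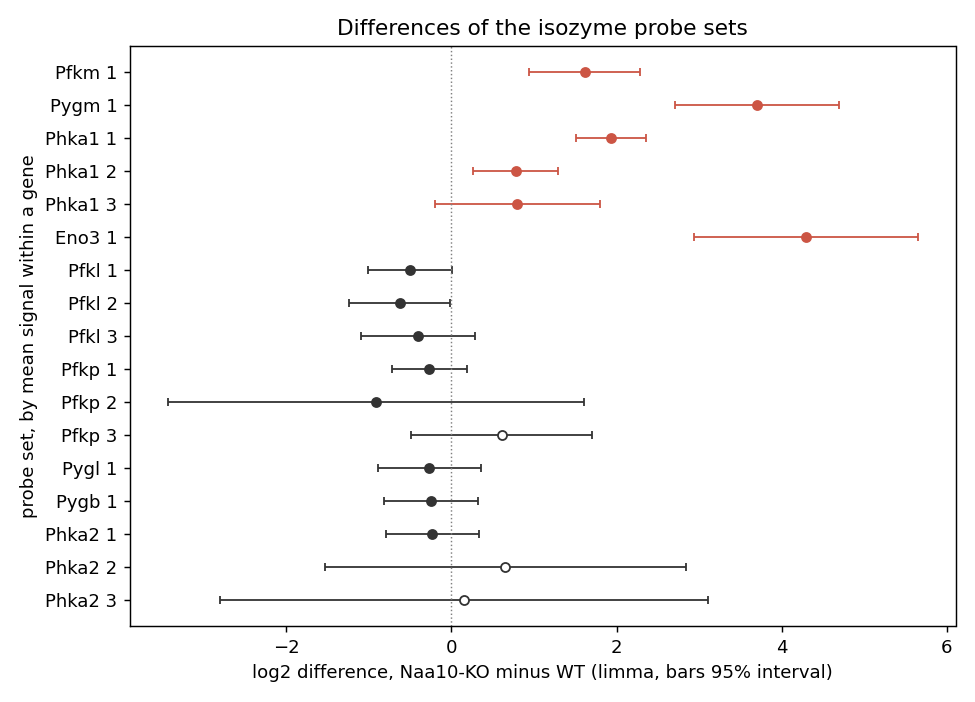
Log2 difference, Naa10-KO minus WT, of the 17 isozyme probe sets, with limma's 95% intervals (n = 3 arrays per genotype). Muscle isozymes are in red and partners in black, numbered by brightness within a gene, and open symbols mark probe sets under the low-signal mark on all 6 arrays. The 6 muscle probe sets lie above 0, from 0.78 for the second of Phka1 to 4.29 for Eno3.

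Probe set by probe set, the muscle forms kept 1 direction. Of the 6 muscle probe sets, 6 had a higher mean in Naa10-KO and 5 had no overlap between genotypes, beside 8.09% of all probe sets with every Naa10-KO array above every WT array. Of the 11 partner probe sets, 8 had a lower mean and 3 had every Naa10-KO array below every WT array, as did 7.82% of all probe sets. The 3 partner probe sets with a higher mean were those under the low-signal mark on all arrays. In limma 0 of the 45037 probe sets passed (0%), with 3362 at an unadjusted p under 0.05, of which 6 were isozyme probe sets, 5 of muscle forms and 1 of Pfkl. With trend and robust options 185 probe sets passed, among them probe sets of all 4 muscle isozymes.

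The difference between isozymes was then measured within each array, as the log2 signal of the muscle form minus the mean of its partners. Only the change of this value between genotypes has meaning, since probe sets differ in their response. For glycogen phosphorylase it was -6.29, -6.35 and -5.62 in WT and -2.40, -2.32 and -1.66 in Naa10-KO, a change of 3.96 (SE 0.33). For phosphofructokinase it was -1.46, -1.46 and -1.01 in WT and 0.59, 0.80 and 0.67 in Naa10-KO, a change of 2.00 (SE 0.16). For the alpha subunit of phosphorylase kinase it was -2.84, -3.26 and -3.24 in WT and -1.02, -1.10 and -0.72 in Naa10-KO, a change of 2.16 (SE 0.18), which was 0.98 with the mean of each gene's probe sets. In each of the 3 families the genotypes did not overlap, and the gap between the nearest arrays was 3.22, 1.60 and 1.74 in the same order. Each exact permutation test over the 6 arrays gave p = 0.1 (2-sided, 0.1 after adjustment over 3 families), the smallest that 3 arrays against 3 allow, so no family could pass 0.05.

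**Figure D3:**
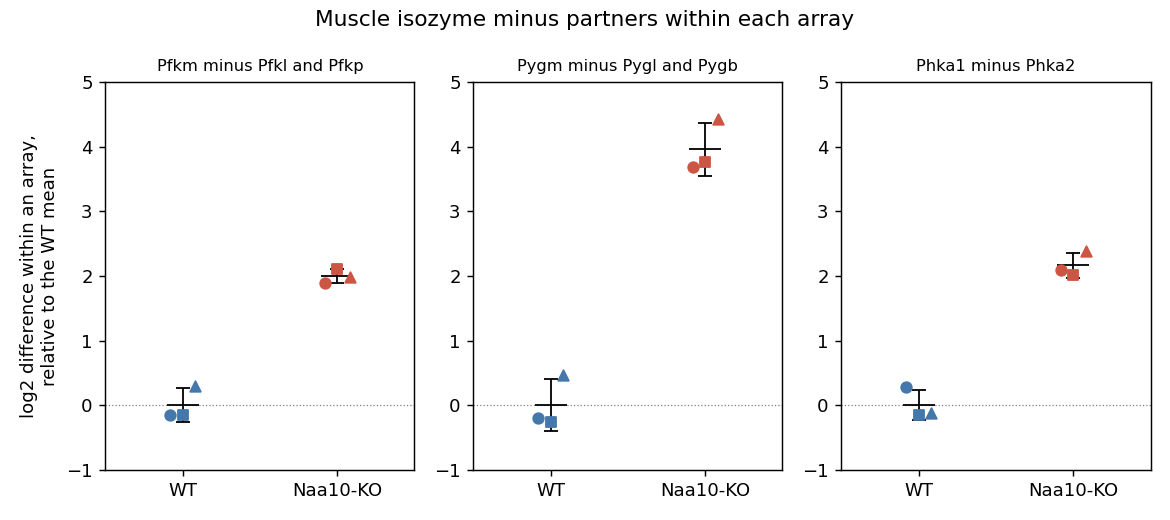
Within-array log2 difference of each muscle isozyme from its partners, drawn relative to the WT mean of that family, with 1 symbol per array (circle, square and triangle for replicates 1 to 3), bars at the mean and error bars of 1 SD (n = 3). The Naa10-KO arrays lie above the WT arrays by 2.00, 3.96 and 2.16 on average, with no overlap.

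Taking each partner alone gave like changes. The change for Pygm was 3.97 (SE 0.44) against Pygl and 3.95 (SE 0.26) against Pygb. For Pfkm it was 2.11 (SE 0.17) against Pfkl and 1.88 (SE 0.16) against Pfkp. The choice of partner therefore mattered little beside the size of either change.

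Sequence before the transcription start is shown for the isozymes of the phosphorylase step and for Eno3. RefSeq (GRCm38.p6) gave 15 promoter windows for all 10 genes, some with several starts. Below are the 250 bases before the start, 5′ to 3′ on the gene's own strand, with E-boxes (CANNTG, the core bound by myogenic factors among many others) and MCAT elements (CATTCC, bound by TEAD factors) in capitals, read on both strands.
Pygm (chr19:6384158-6384407, plus strand): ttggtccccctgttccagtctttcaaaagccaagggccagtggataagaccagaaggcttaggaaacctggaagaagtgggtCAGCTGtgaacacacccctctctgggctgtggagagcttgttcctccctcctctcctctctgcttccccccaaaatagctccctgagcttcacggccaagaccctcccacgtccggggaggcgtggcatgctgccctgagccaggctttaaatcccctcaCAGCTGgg
Pygl (chr12:70227684-70227933, minus strand): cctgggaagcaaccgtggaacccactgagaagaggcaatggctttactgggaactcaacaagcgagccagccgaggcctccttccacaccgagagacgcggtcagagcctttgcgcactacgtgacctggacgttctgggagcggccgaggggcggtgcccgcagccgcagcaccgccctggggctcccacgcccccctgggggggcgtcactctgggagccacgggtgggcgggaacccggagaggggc
Pygb (chr2:150786546-150786795, plus strand): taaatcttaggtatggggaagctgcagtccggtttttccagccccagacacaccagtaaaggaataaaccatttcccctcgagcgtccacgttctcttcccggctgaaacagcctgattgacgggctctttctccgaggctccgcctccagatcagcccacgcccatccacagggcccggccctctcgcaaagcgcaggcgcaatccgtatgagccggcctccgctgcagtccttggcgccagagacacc
Phka1 (chrX:102644247-102644496, minus strand): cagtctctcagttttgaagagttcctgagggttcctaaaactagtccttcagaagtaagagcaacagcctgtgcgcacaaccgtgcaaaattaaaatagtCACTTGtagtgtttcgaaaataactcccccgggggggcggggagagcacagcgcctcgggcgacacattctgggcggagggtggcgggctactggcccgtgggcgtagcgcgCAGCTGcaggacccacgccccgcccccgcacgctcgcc
Phka2 (chrX:160501912-160502161, plus strand): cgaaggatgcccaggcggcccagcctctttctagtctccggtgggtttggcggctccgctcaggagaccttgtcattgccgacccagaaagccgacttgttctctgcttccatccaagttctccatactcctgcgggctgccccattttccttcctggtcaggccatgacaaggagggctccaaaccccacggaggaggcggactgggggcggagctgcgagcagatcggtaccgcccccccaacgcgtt
Eno3 (chr11:70656926-70657175, plus strand): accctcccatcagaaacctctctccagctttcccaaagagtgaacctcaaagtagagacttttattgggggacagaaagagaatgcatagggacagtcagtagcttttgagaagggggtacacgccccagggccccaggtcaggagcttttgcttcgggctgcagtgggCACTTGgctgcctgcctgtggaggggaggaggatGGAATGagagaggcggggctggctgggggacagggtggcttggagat

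The Pygm window held 2 E-boxes, both of the form CAGCTG, at 168 to 163 and 8 to 3 bases before the start. The Phka1 window held 2, 1 of them CAGCTG at 38 to 33 bases before the start. The Eno3 window held 1 E-box, CACTTG, and 1 MCAT element, which reads GGAATG on the strand shown. The windows of Pygl, Pygb, Phka2 and Pfkp held 0 of either, while that of Pfkl held 3 E-boxes. Of the 4 Pfkm windows, 1 held 3 E-boxes, 2 held 1 each and 1 held 0, with 0 MCAT elements. Of the 3 Eno1 windows, 1 held 2 E-boxes and the other 2 held 1 MCAT element each, so matches did not separate muscle forms from partners. Over 32851 windows of the same length, 66.2% held CANNTG, 13.0% held CAGCTG (a form of the first) and 12.6% held CATTCC, so such matches are common. The MEF2 motif and TATAAA, present in 1.69% and 12.4% of windows, were in 0 of the 15 windows. Among the single-start genes, CG dinucleotides numbered 4 in the Pygm and 3 in the Eno3 window, against 19 for Phka1, 20 for Pygl, 17 for Pygb, 16 for Phka2, 13 for Pfkl and 16 for Pfkp, beside a median of 6 over all windows. These letters describe the windows and are not binding sites.

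Signals of skeletal muscle moved with genotype on the same arrays. Of 24 muscle markers (contractile, calcium-handling and other muscle genes, none of the isozymes compared here among them), 23 had a higher mean in Naa10-KO, with a median difference of 5.39. Every Naa10-KO array was above every WT array in 21 of the 24, beside 10% of all genes. In limma 1 of the markers rose (Pvalb) and 23 did not pass, beside 0.0879% of all genes called higher. The mean log2 signal of the markers went from 4.61, 5.14 and 8.04 in WT to 10.86, 10.72 and 10.95 in Naa10-KO. On WT replicates 1 and 2, 14 of the 24 lay under the low-signal mark on both arrays, while Acta1, skeletal actin, was at 12.30 and 12.92, and Myl1, a myosin light chain, at 11.10 and 11.75. Among the lowest on these arrays were the fast myosin Myh4 at 1.84 and 0.99 and Myot, a Z-disc protein, at 1.90 and 0.46, against 8.06 and 7.33 on WT replicate 3 and 11.21 to 12.00 on the Naa10-KO arrays. The part of muscle RNA in the isozyme differences was not tested. In a bulk sample such as this, more cells of a type and more RNA per cell cannot be told apart.

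WT replicate 3, which stood highest among WT arrays in 21 of the 24 muscle markers, was also the highest WT array for Pfkm, Pygm and Eno3. It exceeded the mean of the other 2 WT arrays by 0.66 for Pfkm, 1.07 for Pygm, 1.65 for Eno3 and 3.16 for the mean of the muscle markers. For Phka1 the same value was -0.01 on the brightest probe set, and 0.27 and -1.09 on the other 2, which thus disagreed in sign. Across the 24 single muscle markers this value ran from -0.30 to 6.84, with a median of 3.26, so -0.01 lies within their range. Without WT replicate 3 the differences were 1.83 for Pfkm, 4.06 for Pygm, 4.84 for Eno3 and 1.93 for Phka1. For the 5 partners, WT replicate 3 minus the mean of the other WT arrays was 0.19 to 0.55.

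**Figure D4:**
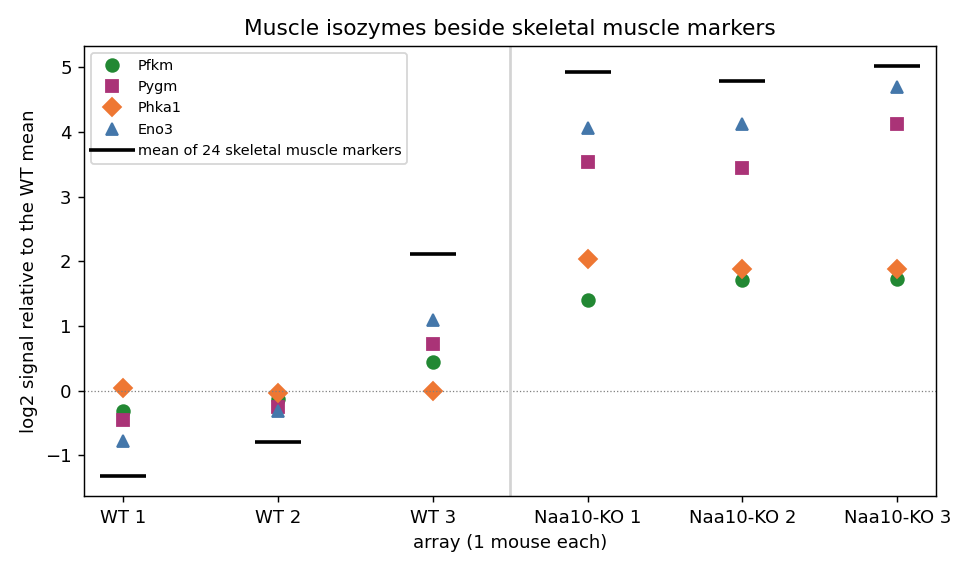
Log2 signal of the 4 muscle isozymes (brightest probe set of each) and the mean of 24 skeletal muscle markers on each array, relative to the WT mean of each. On WT replicate 3 Eno3, Pygm and Pfkm lie above the other WT arrays along with the mean of the markers, and Phka1 lies level with those arrays, 0.01 below their mean. Single markers, not drawn, ran from -0.30 to 6.84 by the same measure.

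Lists of markers of other cells, including those that carry the partner forms, had median differences of -0.27 to 0.68. Liver markers (5 measured) had list means of 4.66 to 5.12 in WT and 5.11 to 5.89 in Naa10-KO. Platelet markers (4) had 7.05 to 7.98 and 7.85 to 8.20, and neuron and Schwann cell markers (5) had 5.84 to 6.26 and 4.67 to 6.29. Single members of these lists separated the genotypes without overlap, at 1.72 for Apoa1 (under the low-signal mark on all arrays), 1.18 for Ppbp, 0.27 for Pf4, 1.05 for Mbp and -1.41 for S100b. White adipocyte markers (10 measured, among them Adipoq and Lep) marked the labelled tissue on every array. Their list means were 14.01 to 14.47 in WT and 13.92 to 14.20 in Naa10-KO. Cidec had every Naa10-KO array below every WT array, at -0.33, as in 8.14% of all genes. The other 9 overlapped. Macrophage markers (9) were at 10.81 to 10.91 and 10.79 to 11.02. Beige and brown markers (10) were at 7.45 to 7.75 in WT and 8.50 to 9.14 in Naa10-KO, with a median difference of 0.35. Of these, 4 had every Naa10-KO array above every WT array, beside 10% of all genes. The 4 were Ucp1 at 6.17, Cidea at 2.10, Cox7a1 at 2.00 and Cox8b at 1.17. The other 6 beige and brown markers overlapped, 2 of them with a lower mean (Dio2 at -0.97 and Prdm16 at -0.12). Slow muscle fibre markers (5) were at 3.27 to 4.77 and 3.94 to 4.83. None of these 7 lists had a member past the threshold in limma, where 0.115% of all genes passed. An unadjusted p under 0.05 in limma came with 8 members in all, 4 of them beige and brown markers, and with 9.20% of all genes. The 3' minus 5' log2 signal of the Gapdh control probe sets, a sign of RNA wear, was 0.55 on Naa10-KO replicate 1 and -0.27 to 0.01 on the other arrays.

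The rest of the pathway was read from 53 further genes of glycogen turnover and glycolysis, of which 47 were measured. In limma 0 passed in either direction, with 5 at an unadjusted p under 0.05, beside 9.20% of all genes. The median difference of the 47 was -0.01. Means were higher for 22 and lower for 25. Every Naa10-KO array was above every WT array in 3, beside 10% of all genes. The reverse held in 5, beside 8.14% of all genes. Pgam2 alone among the 47 exceeded the difference of Pfkm with any array over the low-signal mark.

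Pgam2, the muscle phosphoglycerate mutase, was the exception in size. It was at 2.08, 3.38 and 7.89 in WT and 11.07, 10.77 and 11.55 in Naa10-KO, a difference of 6.68 (SE 1.53, limma adjusted p = 0.366). WT replicate 3 was 5.16 above the mean of the other WT arrays. Without it the difference was 8.40 and passed (limma adjusted p = 0.0388), and with low values set to the mark it was 4.60 and passed (0.0246). Pgam1, the form of most tissues, was at 12.26, 12.51 and 11.58 in WT and 11.84, 11.97 and 12.13 in Naa10-KO, a difference of -0.14.

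In phosphorylase kinase, the catalytic gamma subunit has a muscle form, Phkg1, and a liver form, Phkg2. Phkg1 was at 5.75, 6.18 and 7.16 in WT and 7.29, 6.75 and 7.02 in Naa10-KO, a difference of 0.66 with overlap (limma adjusted p = 0.645). A second, dimmer Phkg1 probe set was at 5.58 ± 0.51 and 6.89 ± 0.13 (SD, n = 3), a difference of 1.31 without overlap. Phkg2 was at 8.17, 8.30 and 8.34 in WT and 7.62, 8.14 and 7.81 in Naa10-KO, a difference of -0.41 without overlap. The beta subunit, Phkb, which has 1 gene for all tissues, differed by 0.13.

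Among the 47 pathway genes, the largest negative difference with all arrays over the low-signal mark was that of a glycogen synthase. Gys2, the liver form, was at 8.81, 9.24 and 8.05 in WT and 7.19, 7.42 and 7.76 in Naa10-KO, a difference of -1.24 (SE 0.35, limma adjusted p = 0.475). Gys1, the muscle form that most tissues also use, was at 8.80 ± 0.48 and 8.97 ± 0.06 (SD, n = 3), a difference of 0.17. Its second, dimmer probe set differed by -0.89. Ugp2, which makes UDP-glucose for glycogen, was at 12.82, 12.96 and 12.92 in WT and 13.51, 13.32 and 13.43 in Naa10-KO. Its difference of 0.52 (SE 0.13, limma adjusted p = 0.436) was matched by its 4 other probe sets, at 0.44 to 0.61, read on the same arrays. Each was without overlap, beside 8.09% of all probe sets with every Naa10-KO array above every WT array. Ugp2 passed in limma in 1 of 15 alternatives, that with trend and robust options (0.0493), and its adjusted p reached 0.689 in the others.

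Other pairs showed smaller gaps. Ppp1r3a, the glycogen-targeting subunit of protein phosphatase in muscle, differed by 0.70 but lay under the low-signal mark on all arrays, and Ppp1r3c differed by 0.25. The aldolases Aldoa and Aldoc differed by 0.24 and -0.11, the fructose bisphosphatases Fbp2 and Fbp1 by 0.45 and -0.58, the lactate dehydrogenases Ldha and Ldhb by -0.01 and -0.11, and the hexokinases Hk2 and Hk1 by 0.10 and -0.36. Fbp1 too was under the mark on all arrays, and Aldoc on 5 of 6. Aldoa, Ldha and Hk2 serve muscle and many other tissues alike.

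**Figure D5:**
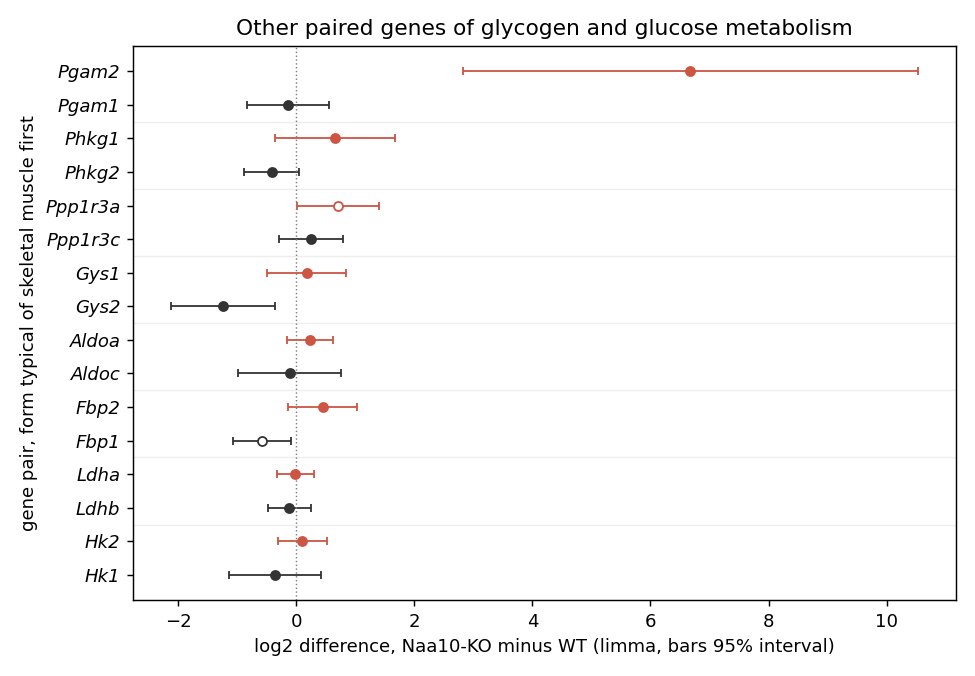
Log2 difference, Naa10-KO minus WT, of 8 further gene pairs of glycogen and glucose metabolism, with limma's 95% intervals (n = 3 arrays per genotype). The form typical of skeletal muscle stands first in each pair, in red, and open symbols mark genes under the low-signal mark on all 6 arrays. Pgam2, at 6.68, lies far from the rest, which run from -1.24 to 0.70.

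After Ugp2, the 9 pathway genes outside these pairs with the smallest unadjusted p did not pass either. Among those with strong signal, Tpi1, triosephosphate isomerase, differed by -0.45, Pkm, pyruvate kinase of muscle and most tissues, by -0.27, and Pfkfb3 and Pfkfb4, which set the level of an activator of phosphofructokinase, by -0.40 and -0.42. The kinase Gsk3a, an inhibitor of glycogen synthase, differed by 0.40 and Bpgm, bisphosphoglycerate mutase, by 0.35. Pgk2, Ppp1r3g and Eno2 differed by -2.02, 2.21 and 1.43, all under the low-signal mark on every array.

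For each muscle isozyme, the 3 genes with the most similar profile over the 6 arrays were taken, by the root mean square distance between profiles centred on their own means. They were Smyd1 (distance 0.18 on the log2 scale), Itm2a (0.20) and Tcea3 (0.22) for Pfkm, Pvalb (0.23), 2310002L09Rik (0.29) and Ampd1 (0.31) for Pygm, Ldb3 (0.13), Slc35f4 (0.15) and Tuba4a (0.20) for Phka1, and Myoz1 (0.29), Asb14 (0.34) and Mypn (0.41) for Eno3. Ldb3, the nearest to Phka1, was at 7.06, 6.94 and 7.28 in WT and 9.29, 9.23 and 9.02 in Naa10-KO. Myoz1, the nearest to Eno3, ran from 5.46 on WT replicate 1 to 8.08 on WT replicate 3, with 11.07 to 11.55 in Naa10-KO. Both Myoz1 and Pvalb, the nearest to Pygm, are among the 24 muscle markers.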

How the data were processed

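The authors deposited 1 log2 signal per probe set for each of 6 arrays. Per the labels' protocols, 3 µg of total RNA was used. The software and genome build are not given in the sources used here. The linear mean after trimming 2% at each end was 500 on every array, so each array was scaled to 1 level. Array medians lay between 5.78 and 5.96. Detection calls were not used, so low signals may be background.

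Probe sets were named by a platform annotation of GEO. For each of 18193 genes, the brightest probe set by mean over arrays was kept. Genotype was fitted with limma 3.58.1 in R 4.3.3 (lmFit, eBayes, Benjamini-Hochberg over all genes, threshold 0.05), and again over 45037 probe sets. The steps were run on simulated data with noise drawn independently for each gene, without variation shared across genes. That run checked the code and is no support for the results. Arrays are separate mice, and their number limits the precision. No probe set was annotated to Naa10 in the annotation used, so the genotype labels were not checked against it.

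Genes named are the 10 isozymes, both genes of 8 pairs, the 10 other pathway genes with the smallest p, and 3 neighbours by profile for each muscle isozyme; the members, lists and tests were chosen with earlier results of these data known. Phkb and the single cell type markers named were picked after their values were seen. Alternatives changed the normalization, low values, probe sets, variance model, replicate block and arrays used.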

Additional observations from a re-analysis of the deposited data

How the results depend on the processing

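Genes called numbered 21 in all. They were 87 with low genes left out, 117 with low values raised, 137 with trend and robust options, 34 with array weights, 50 at an adjusted p of 0.10, and 0 with the mean of probe sets (1491 at an unadjusted p under 0.05 in limma) or with the replicate number as a block (1276). Leaving out 1 array gave 0 to 30. Muscle isozymes called, 1 in all, were 4 with low genes left out, low values raised or trend and robust options, 2 with array weights, and 0 with the mean of probe sets or the replicate block. Leaving out 1 array gave 0 to 2, with 2 without WT replicate 3 and 0 in the other 5 fits. Partners called stayed at 0 in 15 of 15 alternatives in limma, where 0% to 0.882% of all genes tested passed, so 0 was the likely count. Pathway genes called, 0 in all, were 1 with low values raised, 1 with trend and robust options, and 0 to 1 with 1 array left out. Probe sets called, 0 in all, were 185 with trend and robust options and 0 to 1 with 1 array left out.

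Differences of the 4 muscle isozymes kept their sign in 15 of 15 alternatives, as did the within-array changes, at 1.92 to 2.15 for phosphofructokinase, 3.37 to 4.19 for phosphorylase and 0.98 to 2.30 for phosphorylase kinase, the lowest with the mean of probe sets. As the genotypes did not overlap in any of these, leaving out 1 array could not have reversed a sign. With the mean of probe sets, Phka2 turned to 0.19 and Gys1 to -0.36. With 1 array left out, the near-zero values of Pgam1 (-0.406 to 0.0594), Aldoc (-0.30 to 0.24) and Ldha (-0.0376 to 0.0223) changed sign. Enolase with Eno2 as partner was tried after the data were seen.

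Same-numbered arrays share only a number. Correlations of their deviations were 0.00, 0.00 and -0.02, and 0 of 3 correlated best with their own number. Few arrays and unknown background limit values under the low-signal mark.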
